A study of Mus with 9 samples.

Results

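Left atrial RNA of infarcted mice given artesunate (MI_ART 1, 2 and 3) was set against that of infarcted mice given vehicle (MI 2, MI 3 and MI 4). The libraries were chosen by their treatment labels and make up 6 of the 9 libraries of the series, 3 in each group. The remaining 3, from sham-operated mice given vehicle (Sham 1, 2 and 3), entered the statistical fit to help estimate the spread and are given as reference levels. Their titles read CON and carry the tag AF, which the titles of the infarcted libraries lack. All animals were labelled wild-type male C57BL/6J mice, aged 8 to 10 weeks and weighing 20 to 23 g. Infarction was made with a lasting ligature on the left anterior descending coronary artery, and Sham mice had the operation without the ligature. Artesunate was dissolved in DMSO and injected into the peritoneum, and the vehicle is not named. The labels conflict on the dose: 25 mg/kg every day for 7 days from surgery onwards in one text, and 10 mg/kg on alternate days from 2 days before surgery to day 7 in another. The labels also differ on the animal (mice or rats), on the number of groups (3 or 4) and on the RNA extraction (TRIzol or an RNeasy kit), and they do not state the day of harvest. Whether the 3 libraries of a group stem from different animals is not said either, so the tests capture the spread among these libraries, which may be technical.

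Artesunate is an antimalarial drug of the artemisinin family, whose peroxide bridge is opened by iron and haem. After an infarct of the left ventricle, the left atrium carries a raised filling load. Its muscle cells turn on fetal and stress genes and lose metabolic and ion channel transcripts, fibroblasts lay down matrix, and immune cells enter. Scarring and altered conduction in the left atrium favour atrial fibrillation, the rhythm disorder named in the title of the series.

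Total counts ran from 69363844 to 73621277 in the 6 infarcted libraries. Levels are given as CPM, in which a count is divided by the TMM-scaled library size so that libraries of different depth can be compared, and are not comparable between genes of different length. The tissue label reads atria and the design text left atrial tissue, yet myosin light chains of ventricular muscle (Myl2, Myl3) stood beside those of atrial muscle (Myl7, Myl4). The log2 ratio of Myl7 + Myl4 to Myl2 + Myl3 was highest in MI 4, at 1.52, beside -0.44 for MI 2 and -0.25 for MI 3, and it was -2.53, -0.24 and -8.90 in MI_ART 1, 2 and 3 (two-sided exact permutation p = 0.3, smallest possible 0.1). In Sham 1, 2 and 3 the ratio was -1.79, -4.07 and -2.25, below every MI library. The part of the chamber makeup in the comparisons with Sham given below was not tested. MI_ART 3 held almost no atrial light chain RNA, with Myl7 at 1.96 CPM and Myl4 at 6.21 CPM. MI 4 stood apart from MI 2 and MI 3: the mean chi-square over genes between its counts and theirs was 580 and 469, where the other pairs within a group gave 62.5 to 129. In MI 4 the summed level of 11 B and plasma cell markers was 171 CPM, against 24.4 to 43.7 CPM in the other infarcted libraries, and Bmp10, a growth factor of right atrial muscle, was at 42.0 CPM against at most 0.200 CPM. Many differences moved when MI 4 or MI_ART 3 was left out, and values without them are given beside those most affected.

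**Figure D1:**
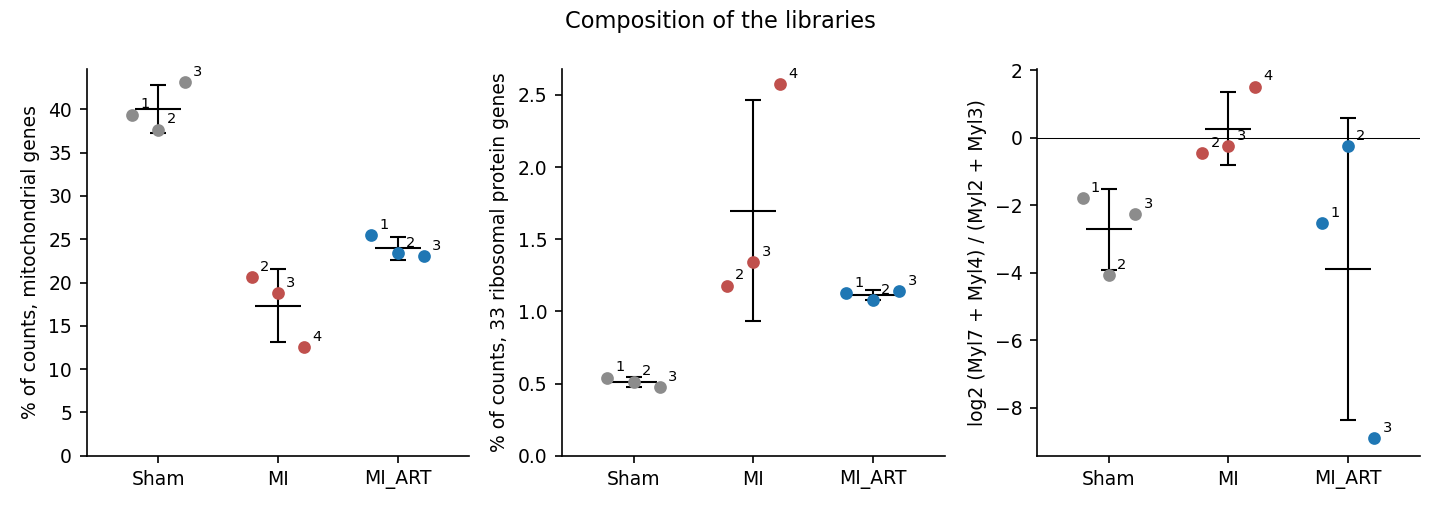
Share of counts on mitochondrial genes (left, %), share on 33 ribosomal protein genes (middle, %) and log2 ratio of atrial to ventricular myosin light chains (right) in each library. Points are libraries with their replicate number, and bars are the group mean and SD of 3 libraries. MI 4 has the lowest mitochondrial share and the highest ribosomal share and light chain ratio of the 6 infarcted libraries, and MI_ART 3 has the lowest light chain ratio, at -8.90.

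Of 19326 genes tested, 2 differed between MI_ART and MI at an adjusted p under 0.05 (0.0103% of genes; edgeR quasi-likelihood test, Benjamini-Hochberg adjustment). Both fell with artesunate: Slc39a9, a zinc transporter, and Tnnt3, the troponin T of fast skeletal muscle. No gene was called higher. At an unadjusted p under 0.05 there were 1346 genes (6.96%), of which 726 were higher (3.76%) and 620 lower (3.21%). Without MI 4 there were 752 higher (3.78% of 19893 genes) and 493 lower (2.48%). Slc39a9 was the 1 gene called without MI 4 (0.00503%), without MI_ART 3 (0.00498% of 20097 genes) and without both (0.00508% of 19685 genes). The 3 MI_ART libraries all lay above the 3 MI libraries for 1426 genes (7.38%) and all below for 1260 (6.52%). The log2 difference was above 0 for 9603 genes (49.7%) and below 0 for 9723. These shares are the reference for the counts of list members given below. DESeq2 called 45 genes higher (0.24% of 18753 genes with an adjusted p) and 40 lower (0.213%). All 85 had an unadjusted p under 0.05 in edgeR, and 81 did not overlap between the groups. Limma-voom with sample quality weights called 1 gene higher and 6 lower.

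**Figure D2:**
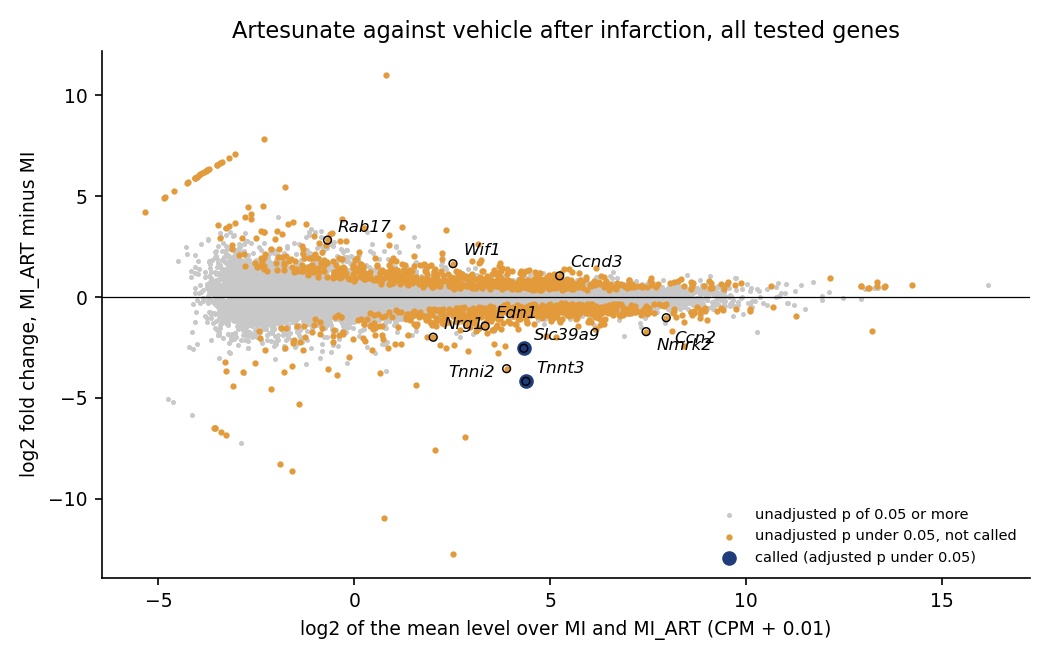
Log2 fold change of MI_ART against MI (vertical) by the log2 of the mean level over both groups in CPM plus 0.01 (horizontal) for the 19326 tested genes. Slc39a9 and Tnnt3 (blue) are the 2 called genes, at -2.54 and -4.18, and orange points are genes at an unadjusted p under 0.05 that were not called.

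Slc39a9, also known as ZIP9, encodes a zinc transporter of the Golgi and cell membrane. It lies on chromosome 12 from 80643883 to 80683342 (GRCm38). Its level was 37.1, 37.5 and 28.1 CPM in MI (libraries 2, 3 and 4, in this order throughout) and 5.08, 5.49 and 7.03 CPM in MI_ART (libraries 1, 2 and 3). Every MI_ART library was far below every MI library, and the 3 Sham libraries, at 29.9, 30.2 and 31.2 CPM, lay with MI. The mean fell from 34.2 ± 5.33 to 5.87 ± 1.03 CPM (SD, n = 3 each), which is 5.83-fold (log2 -2.54, SE 0.19, 95% interval -2.97 to -2.11, edgeR adjusted p = 0.00277). It was called in 21 of 23 alternative analyses. The call was lost with the 6 infarcted libraries alone (adjusted p = 0.110) and without MI_ART 2 (adjusted p = 0.0533), with log2 differences of -2.54 and -2.49.

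The start of Slc39a9 overlaps Erh by 229 bases. The strand setting of the counting is not given, so reads in that stretch cannot be assigned with certainty. Erh, which encodes a small nuclear protein of RNA processing, was at 42.3, 52.3 and 69.4 CPM in MI and at 39.8, 35.95 and 44.0 CPM in MI_ART, with overlap (log2 -0.45, SE 0.20, adjusted p = 0.716, and -0.24 without MI 4). Of the nearest annotated genes on both sides, Plekhd1 reached at most 0.858 CPM in an infarcted library and Ccdc177 at most 0.0911 CPM, while Gm46364, Gm23817 and Plekhd1os had no count in any. None of the neighbours passed the test.

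Zinc transporters of the SLC39 family bring zinc into the cytosol, those of the SLC30 family take it out, and metallothioneins store it. Of 28 genes of these families, 25 were tested, and Slc39a9 was the only one called. Their median log2 difference was 0.00, beside -0.0030 for all tested genes, with 0 members higher and 3 lower at an unadjusted p under 0.05. The others of the 3 were Slc39a13 and Slc39a7, transporters of the early secretory pathway. Slc39a13 was at 60.7, 62.2 and 121 CPM in MI and at 45.0, 59.3 and 45.9 CPM in MI_ART, without overlap, though MI_ART 2 lay just under MI 2 (log2 -0.70, SE 0.27, adjusted p = 0.709, and -0.30 without MI 4). Slc39a7 overlapped between the groups (log2 -0.66, SE 0.25, adjusted p = 0.709, and -0.41 without MI 4).

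Slc30a1, the zinc exporter of the cell surface, was at 23.0, 24.0 and 12.6 CPM in MI and 24.8, 25.8 and 26.1 CPM in MI_ART (log2 0.36, SE 0.23, adjusted p = 0.755, and 0.12 without MI 4). Mt1, the most abundant metallothionein of the list, was at 78.1, 72.9 and 125 CPM in MI and 93.8, 119 and 105 CPM in MI_ART (log2 0.20, SE 0.24, adjusted p = 0.849, and 0.49 without MI 4). For Slc30a1 MI 4 alone stood apart, and for Mt1 the groups overlapped. Besides Slc39a9, 24 members were tested: Slc39a1, Slc39a2, Slc39a3, Slc39a4, Slc39a6, Slc39a7, Slc39a8, Slc39a10, Slc39a11, Slc39a12, Slc39a13, Slc39a14, Slc30a1, Slc30a2, Slc30a3, Slc30a4, Slc30a5, Slc30a6, Slc30a7, Slc30a9, Mt1, Mt2, Mt3 and Mtf1. Their log2 differences ran from -0.99 (Slc39a4) to 2.96 (Slc30a3, carried by MI_ART 1 alone, at 2.07 CPM), with no adjusted p under 0.709. Slc30a8, Slc30a10 and Slc39a5 were too low to test.

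**Figure D3:**
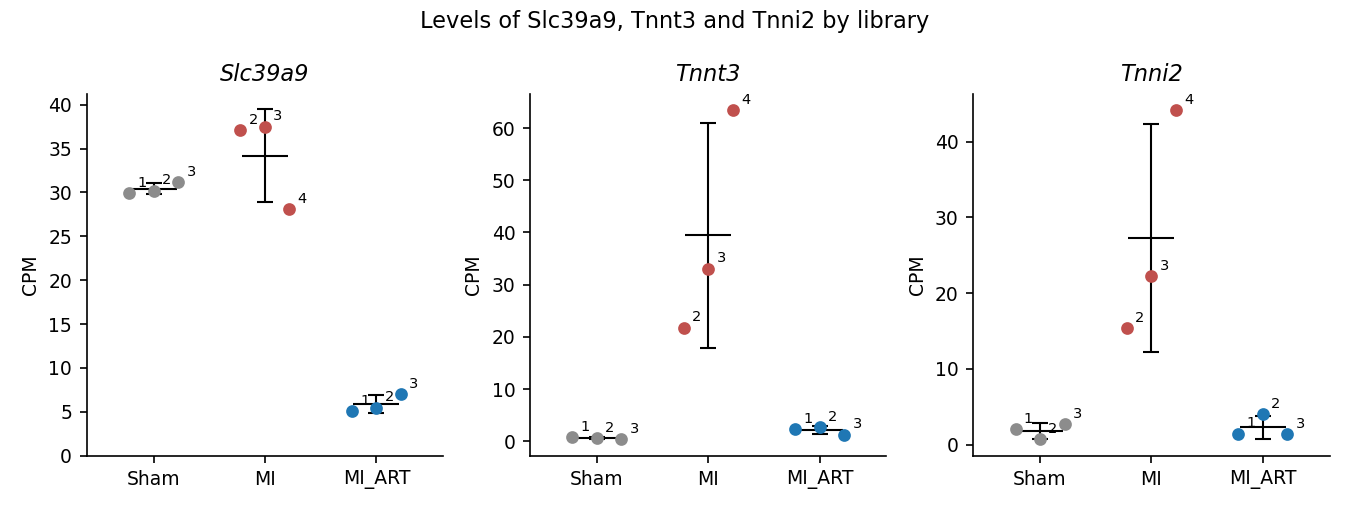
Levels of Slc39a9, Tnnt3 and Tnni2 (CPM, linear axes) in each library. Points are libraries with their replicate number, and bars are the group mean and SD of 3 libraries. Slc39a9 lies between 28.1 and 37.5 CPM in Sham and MI and between 5.08 and 7.03 CPM in MI_ART, while Tnnt3 and Tnni2 are high in MI alone.

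Tnnt3 encodes the fast skeletal isoform of troponin T, a protein of the thin filament that exists in a separate cardiac form in heart muscle. It lies on chromosome 7 from 142498771 to 142516213 (GRCm38). Its level was 21.8, 33.1 and 63.5 CPM in MI and 2.42, 2.80 and 1.29 CPM in MI_ART, against 0.774, 0.671 and 0.421 CPM in Sham. All MI_ART libraries lay below MI and above Sham. The mean fell from 39.4 ± 21.6 to 2.17 ± 0.783 CPM (SD, n = 3 each), which is 18.2-fold (log2 -4.18, SE 0.46, 95% interval -5.22 to -3.15, edgeR adjusted p = 0.0447). The call was kept in 7 of 23 alternative analyses, and the log2 difference stayed between -4.47 and -3.39 in all 23. Leaving out any 1 library other than MI 2 ended the call, with edgeR adjusted p from 0.0552 to 0.293. Without MI 4, the highest library, the difference was -3.66 (adjusted p = 0.0552), and with the light chain ratio as a covariate it was -3.55 (adjusted p = 0.518).

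Tnni2, the fast skeletal troponin I, is the next protein-coding gene but one on the same chromosome, 54361 bases away. Its level was 15.4, 22.2 and 44.2 CPM in MI and 1.46, 4.06 and 1.44 CPM in MI_ART, with Sham at 2.03, 0.731 and 2.74 CPM. As for Tnnt3, the groups did not overlap and MI 4 was highest. It did not pass the test (log2 -3.55, SE 0.62, adjusted p = 0.455 in edgeR), though DESeq2 called it (adjusted p = 1.27e-07). Lsp1, a leukocyte actin-binding protein between both genes, had a log2 difference of -0.61 (SE 0.24, adjusted p = 0.709, and -0.28 without MI 4). H19, a maternally expressed long RNA on the far side, was at 45.3, 39.2 and 146 CPM in MI and 28.4, 30.1 and 27.1 CPM in MI_ART (log2 -1.43, SE 0.51, adjusted p = 0.709), and at -0.57 without MI 4. Prr33 overlaps Tnnt3 by 8001 bases, and how reads in that stretch were assigned is not given. Its log2 difference was 0.25 (SE 0.18, adjusted p = 0.768).

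No other gene of fast and embryonic skeletal muscle passed the test. Of 28 such genes, 16 were tested, with a median log2 difference of -0.55 (-0.18 without MI 4, -0.29 without MI_ART 3 and -0.11 without both), and 2 were higher and 2 lower at an unadjusted p under 0.05. The 2 lower were Tnnt3 and Tnni2. Cacna1s, the skeletal muscle calcium channel, was at 1.82, 0.590 and 0.366 CPM in MI and 2.97, 2.88 and 3.86 CPM in MI_ART (log2 1.81, SE 0.52, adjusted p = 0.656). Ckm, the muscle creatine kinase, had a log2 difference of 0.66 (SE 0.22, adjusted p = 0.685). Myl1, a light chain of fast muscle that atria also hold, was at 241, 225 and 238 CPM in MI and 36.9, 195 and 18.0 CPM in MI_ART, and so followed the atrial share of the MI_ART libraries (log2 -1.49, SE 0.79, adjusted p = 0.732). Acta1, skeletal actin, overlapped (log2 0.48, SE 0.37). The other 10 tested members were Casq1, Mylpf, Musk, Myh8, Actn3, Mybpc2, Atp2a1, Pvalb, Chrna1 and Ryr1, all with an adjusted p of at least 0.656. Chrng, Myf5, Myf6, Myod1 and Pax7 had no count in the 6 infarcted libraries. Myh1, Myh2, Myh3, Myh4, Mymk, Myog and Tnnc2 reached at most 0.194 CPM and were not tested.

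Of the genes that lay lower with artesunate without passing the test, Nrg1 had the smallest p. Nrg1 encodes neuregulin, a ligand of the ErbB receptors of heart muscle cells. Its level was 6.04, 6.12 and 7.18 CPM in MI and 2.07, 1.53 and 1.26 CPM in MI_ART, with Sham at 1.59, 1.32 and 1.90 CPM. The MI_ART libraries lay close to those of Sham, with MI_ART 1 just above and MI_ART 3 just below all 3, and every MI library was far higher (log2 -1.99, SE 0.27, adjusted p = 0.196, the smallest of the genes not called). Edn1 encodes the peptide endothelin, a constrictor of vessels. Its level was 13.995, 11.6 and 18.8 CPM in MI, 5.47, 4.34 and 6.53 CPM in MI_ART, and 5.14, 4.98 and 4.69 CPM in Sham (log2 -1.44, SE 0.24, adjusted p = 0.410). Here too MI alone was high. MI and MI_ART were each tested against the same Sham libraries, and MI also enters the comparison with MI_ART, so these contrasts share libraries. Of all tested genes, 33.1% differed between MI and Sham at an adjusted p under 0.05 and 20.3% between MI_ART and Sham. Against Sham, the log2 difference of Nrg1 was 2.01 in MI (adjusted p = 0.000588) and 0.02 in MI_ART (adjusted p = 0.977), and that of Edn1 was 1.58 (adjusted p = 0.000927) and 0.14 (adjusted p = 0.729).

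Ccn2, the connective tissue growth factor that TGF-beta and stretch induce, was at 309, 375 and 319 CPM in MI and 162, 170 and 160 CPM in MI_ART. The libraries of each group were close together, and Sham was lower still, at 63.4, 72.5 and 73.7 CPM (log2 of MI_ART against MI -1.03, SE 0.15, adjusted p = 0.237). Without MI 4 the difference was -1.06. Nmrk2, a kinase that makes NAD from nicotinamide riboside, was at 211, 273 and 318 CPM in MI and 49.8, 112 and 82.8 CPM in MI_ART, against 3.35 to 5.68 CPM in Sham (log2 -1.72, SE 0.31, adjusted p = 0.456). MI_ART thus lay between both other groups for Ccn2 and Nmrk2. Against Sham, Ccn2 was higher by log2 2.26 in MI (adjusted p = 4.90e-05) and 1.23 in MI_ART (adjusted p = 0.000536), and Nmrk2 by 5.95 (adjusted p = 3.21e-05) and 4.23 (adjusted p = 0.000137).

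Of the remaining lower genes, Zdhhc2, an enzyme that attaches palmitate to proteins, was at 14.1, 19.6 and 18.4 CPM in MI and 7.40, 9.25 and 7.83 CPM in MI_ART (log2 -1.09, adjusted p = 0.519). Tuft1, first known from tooth enamel, was at 4.43, 5.26 and 8.91 CPM in MI and 2.54, 2.45 and 1.84 CPM in MI_ART (log2 -1.45, adjusted p = 0.570). Both were low in Sham, at 3.02 to 4.42 CPM for Zdhhc2 and 1.38 to 1.70 CPM for Tuft1. Ube2g2 and Rora had another order of groups. Ube2g2, a ubiquitin-conjugating enzyme of the endoplasmic reticulum, was at 32.0, 36.3 and 31.9 CPM in MI_ART, below MI (59.7, 59.3 and 90.2 CPM) and below Sham (60.9 to 62.4 CPM), and so, like Slc39a9, was lowest in MI_ART (log2 of MI_ART against MI -1.06, SE 0.19, adjusted p = 0.455). Against Sham it was lower in MI_ART (log2 -0.89, adjusted p = 0.00924). Rora, a nuclear receptor that drives clock genes and is named here from the clock list, was at 32.6 to 37.6 CPM in Sham, 24.2, 17.0 and 10.6 CPM in MI and 3.12, 7.63 and 5.66 CPM in MI_ART (log2 of MI_ART against MI -1.66, SE 0.36, adjusted p = 0.570). All of Nrg1, Edn1, Ccn2, Nmrk2, Zdhhc2, Tuft1, Ube2g2 and Rora were called by DESeq2, with adjusted p from 2.87e-08 (Nrg1) to 0.00880 (Tuft1).

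**Figure D4:**
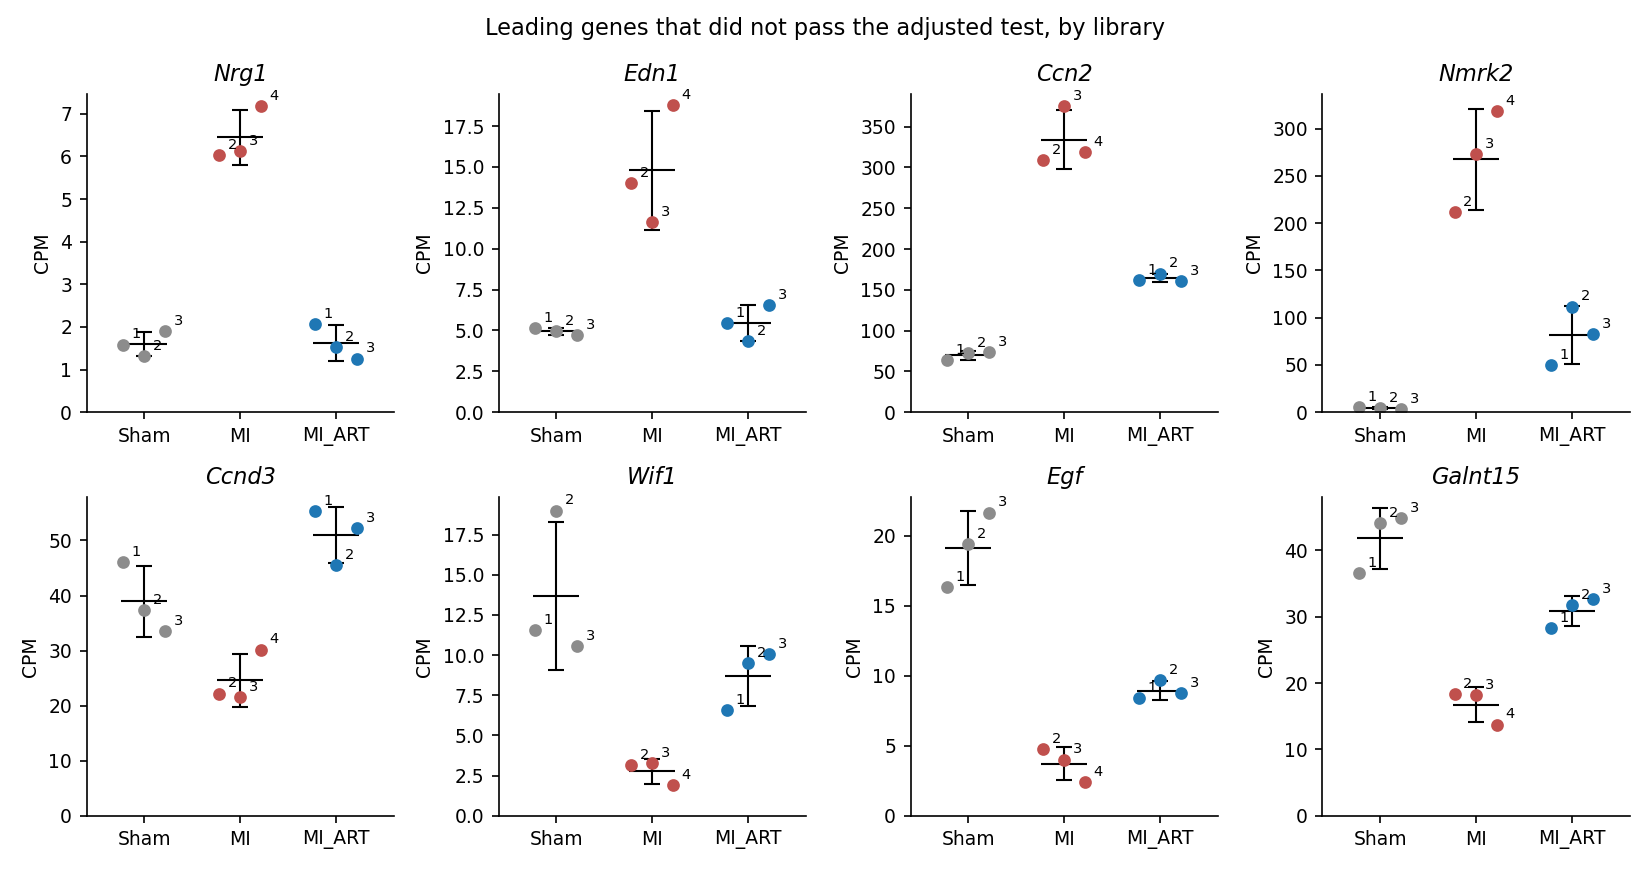
Levels in CPM (linear axes from 0) of 4 of the leading lower genes (top) and 4 of the leading higher genes (bottom) in each library. Points are libraries with their replicate number, and bars are the group mean and SD of 3 libraries. No MI_ART library overlaps an MI library in any panel, and Nrg1 and Edn1 in MI_ART lie close to Sham.

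In the other direction, 10 genes led without passing the test. Ccnd3, a cyclin that opens the cell cycle and is held in resting muscle, was at 22.2, 21.5 and 30.2 CPM in MI and 55.4, 45.5 and 52.2 CPM in MI_ART (log2 1.05, SE 0.19, adjusted p = 0.456 in edgeR, 0.00330 in DESeq2). Sham was at 33.5 to 46.0 CPM, above every MI library, and MI_ART 1 and 3 were above every Sham library. Wif1, a secreted inhibitor of Wnt ligands, was at 3.14, 3.25 and 1.89 CPM in MI and 6.55, 9.48 and 10.0 CPM in MI_ART, with Sham at 10.6 to 18.98 CPM (log2 1.65, SE 0.31, adjusted p = 0.456). Egf, the epidermal growth factor, was at 4.76, 4.00 and 2.40 CPM in MI, 8.39, 9.69 and 8.73 CPM in MI_ART and 16.3 to 21.6 CPM in Sham (log2 1.26, SE 0.26, adjusted p = 0.535). For Wif1 and Egf every MI_ART library lay between MI and Sham.

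The same order held for Galnt15, an enzyme of O-glycan synthesis, with 18.3, 18.1 and 13.7 CPM in MI and 28.3, 31.7 and 32.6 CPM in MI_ART, against 36.5 to 44.9 CPM in Sham (log2 0.88, SE 0.17, adjusted p = 0.490). It held for Cyp4b1, a cytochrome P450 of fatty acid hydroxylation, with 11.6, 9.88 and 10.8 CPM in MI and 18.9, 16.1 and 18.9 CPM in MI_ART, against 38.4 to 38.9 CPM in Sham (log2 0.74, SE 0.15, adjusted p = 0.519). Hdac11, a deacylase that removes fatty acyl groups, was at 5.06, 4.74 and 6.10 CPM in MI and 11.5, 8.36 and 10.0 CPM in MI_ART (log2 0.91, adjusted p = 0.570). Lingo3 (log2 1.58), Chrna2, a nicotinic receptor subunit (log2 1.66), Ppip5k1, a kinase of inositol pyrophosphates (log2 0.98), and Rab17, a small GTPase of epithelial traffic (log2 2.82, with MI at no more than 0.205 CPM), also lay wholly above MI, at adjusted p of 0.456 to 0.570. All 10 were called by DESeq2. The 10 leading genes in each direction, Slc39a9 and Tnnt3 included, all kept the sign of their difference without MI 4 and without MI_ART 3.

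Matrix genes lay lower in MI_ART as a group, yet none passed the test. Of 30 fibrillar collagens and matrix proteins, all tested, 29 had a log2 difference below 0, with a median of -0.49 against -0.0030 for all tested genes, and 9 were lower and 0 higher at an unadjusted p under 0.05. Eln, which encodes elastin, was at 388, 480 and 871 CPM in MI and 53.3, 218 and 47.6 CPM in MI_ART (log2 -2.45, SE 0.63, adjusted p = 0.650). Within each group Eln had the library order of the light chain ratio, and the part of the chamber makeup in its difference was not tested. Over 23 alternative analyses that difference ran from -3.52 to -1.68. Lox, the enzyme that crosslinks collagen and elastin, was at 207, 261 and 222 CPM in MI and 161, 110 and 139 CPM in MI_ART (log2 -0.75, SE 0.20, adjusted p = 0.650). Neither overlapped, and all 3 MI_ART libraries of Lox stayed far above Sham, at 6.20 to 8.63 CPM. Col5a2 (log2 -0.54), Col12a1 (log2 -0.64) and Sparc (log2 -0.51), a collagen-binding glycoprotein, had groups that did not overlap either. The most abundant chains did overlap: Col3a1 was at 3697, 4262 and 4300 CPM in MI and 3615, 3373 and 4092 CPM in MI_ART (log2 -0.15, SE 0.18), and Col1a1 at 646, 749 and 1237 CPM and 747, 477 and 739 CPM (log2 -0.42, SE 0.28). Without MI 4 the median of the list was -0.27, with 7 members lower at an unadjusted p under 0.05, and Col1a1 stood at -0.09.

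Markers of activated fibroblasts had a median log2 difference of -0.44 over 16 genes, with 1 higher and 4 lower at an unadjusted p under 0.05, and -0.33 without MI 4. Cthrc1, a secreted protein of scar fibroblasts, was at 79.7, 101 and 118 CPM in MI and 43.7, 45.1 and 57.2 CPM in MI_ART, against at most 0.756 CPM in Sham (log2 -1.03, SE 0.29, adjusted p = 0.656). Meox1, a transcription factor that activates fibroblasts, was at 47.1, 64.0 and 57.5 CPM in MI and 31.1, 39.2 and 35.8 CPM in MI_ART (log2 -0.67, SE 0.17, adjusted p = 0.650). Ddah1, an enzyme that degrades inhibitors of nitric oxide synthase, was at 24.2, 44.3 and 42.5 CPM and at 15.0, 17.9 and 21.2 CPM (log2 -1.04, SE 0.26, adjusted p = 0.650). In all 3 the groups were separate. Comp, a cartilage matrix protein, had a log2 difference of -1.60 that rested on MI 4, at 55.4 CPM against 12.4 and 13.3 CPM in MI 3 and MI 2, and was -0.53 without it. Postn, or periostin, was at 1080, 1318 and 634 CPM in MI and 730, 771 and 829 CPM in MI_ART, with MI 4 the lowest of the 6 (log2 -0.38, and -0.63 without MI 4). In bulk tissue, fewer cells of a type and less RNA per cell cannot be told apart.

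Of 12 markers of resting fibroblasts, 2 were higher and 2 lower at an unadjusted p under 0.05, with a median of -0.10 that turned to 0.18 without MI 4 and to 0.29 without both MI 4 and MI_ART 3. Smoc2, a matricellular protein, was at 49.2, 52.2 and 59.3 CPM in MI and 76.8, 81.9 and 75.5 CPM in MI_ART (log2 0.54, SE 0.14, adjusted p = 0.650), whereas Tcf21, a transcription factor of the fibroblast lineage, was at 22.9, 23.9 and 38.9 CPM and at 12.6, 18.3 and 15.1 CPM (log2 -0.90, SE 0.24, adjusted p = 0.656). Both were without overlap, in opposite directions. Of 22 matrix proteases and inhibitors, 1 was higher and 2 lower at that level, with a median of -0.14. The inhibitor Timp3 was at 229, 275 and 281 CPM in MI and 207, 222 and 170 CPM in MI_ART (log2 -0.39), and Timp4 was highest in MI_ART 3, at 11.2 CPM against 1.54 to 4.94 CPM in the other infarcted libraries (log2 1.28, and 0.64 without MI_ART 3).

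In TGF-beta signalling, which drives fibroblast activation, the median log2 difference was -0.41 over 26 genes, with 1 higher and 6 lower at an unadjusted p under 0.05, and -0.21 with the same counts without MI 4. The ligand Tgfb1 was at 22.8, 24.4 and 65.9 CPM in MI and 23.5, 15.99 and 21.8 CPM in MI_ART, so that its difference (log2 -0.88, SE 0.38, adjusted p = 0.709) rested largely on MI 4 and was -0.21 without it. Ltbp2, a matrix protein related to those that hold latent TGF-beta, was at 55.3, 66.7 and 89.6 CPM in MI and 38.8, 39.1 and 51.7 CPM in MI_ART (log2 -0.71, SE 0.22, adjusted p = 0.674). Bmp6, a ligand of the same superfamily that also sets iron balance in the liver, was at 24.0, 23.0 and 26.7 CPM in MI and 16.1, 20.4 and 15.9 CPM in MI_ART (log2 -0.49, SE 0.16, adjusted p = 0.685). The member that lay higher was the co-receptor Tgfbr3, at 36.5, 32.2 and 20.6 CPM and at 38.9, 55.0 and 42.0 CPM (log2 0.61, SE 0.23, adjusted p = 0.709, and 0.40 without MI 4). The target Ccn2, at log2 -1.03, had the smallest p of the list.

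Stress and fetal genes of heart muscle had a median log2 difference of -0.75 over 25 genes, with 0 higher and 7 lower at an unadjusted p under 0.05. The median was -0.35 with 4 lower without MI 4, -0.42 with 4 lower without MI_ART 3, and -0.25 with 2 lower without both. Edn1, given above, is one of the 7, and Nppa is also one of the atrial markers given below. Nppb, which encodes the B-type natriuretic peptide released on wall stretch, was at 388, 454 and 599 CPM in MI and 227, 246 and 135 CPM in MI_ART, with Sham at 85.8, 34.3 and 84.05 CPM (log2 -1.25, SE 0.36, adjusted p = 0.656). The groups were separate, and the difference was -1.06 without MI 4 and -1.02 without MI_ART 3. Nppa, the atrial natriuretic peptide, was at 11540, 11451 and 20599 CPM in MI and 2313, 9757 and 1293 CPM in MI_ART (log2 -1.71, SE 0.73, adjusted p = 0.709). Within MI_ART it was highest in MI_ART 2, the library with the most atrial light chain RNA, and the part of the chamber makeup in this difference was not tested. Tnfrsf12a, the receptor for the cytokine TWEAK, was at 75.5, 86.8 and 162 CPM in MI and 41.8, 64.5 and 42.4 CPM in MI_ART (log2 -1.12, SE 0.38, adjusted p = 0.687, and -0.71 without MI 4).

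Markers of the chambers lay on opposite sides of 0. The 12 ventricular markers all had a log2 difference above 0, with a median of 0.58, and 4 were higher at an unadjusted p under 0.05. Their summed level was 4246, 3361 and 2180 CPM in MI and 4239, 4358 and 5974 CPM in MI_ART, so that MI 2 and MI_ART 1 were alike and MI 4 and MI_ART 3 set the ends. The 18 atrial markers had a median of -0.40, with 0 higher and 2 lower, and summed levels of 28118, 25674 and 37541 CPM in MI and 15617, 30557 and 14460 CPM in MI_ART. The list includes Myh6. In MI_ART 3, members other than Myl7, Myl4 and Nppa (1.96, 6.21 and 1293 CPM) made up most of the sum. The sum thus does not show how little atrial light chain RNA that library held. Myl7 was at 453, 347 and 989 CPM in MI and 173, 803 and 1.96 CPM in MI_ART (log2 -0.87, SE 1.29, adjusted p = 0.885), and Myl4 at 1399, 1412 and 2922 CPM and 268, 1474 and 6.21 CPM (log2 -1.71, SE 1.24, adjusted p = 0.776). Myl2 was at 846, 816 and 455 CPM and 946, 978 and 1537 CPM (log2 0.71, SE 0.28, adjusted p = 0.709), and Myl3 overlapped (log2 0.56, SE 0.24, adjusted p = 0.716). Without MI 4 the median was 0.34 for the ventricular and -0.15 for the atrial markers. Without both MI 4 and MI_ART 3, the medians were 0.20 for the ventricular and 0.16 for the atrial markers. Kcnip2 and Pln of the ventricular list, and Kcna5 and Gja5 of the atrial list, are given again below. They appear there under ion channels, conduction and calcium handling and are not separate results.

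Most ion channel genes that shape the cardiac action potential had a log2 difference above 0, though the libraries overlapped in the list median. Of 38, all tested, 31 lay above 0, with a median of 0.31. At an unadjusted p under 0.05, 7 were higher and 0 lower (5 higher without MI 4, with a median of 0.26). Against the mean of MI, the list median was 0.24, -0.02 and -0.27 in MI. In MI_ART it was 0.14, 0.61 and 0.23, so that MI 2 lay above MI_ART 1 and 3. Kcnip2, the subunit that sets the transient outward potassium current, was at 37.5, 19.7 and 13.6 CPM in MI and 58.8, 48.1 and 56.5 CPM in MI_ART, with Sham at 114 to 174 CPM (log2 1.21, SE 0.34, adjusted p = 0.656). Kcnd2, a pore subunit of that current, was at 10.6, 6.70 and 2.77 CPM and at 17.2, 16.5 and 17.7 CPM (log2 1.36, SE 0.39, adjusted p = 0.656). MI 4, the library with the highest light chain ratio, was lowest for both. Kcnj8, the ATP-sensitive channel of mural cells, was at 17.9, 13.9 and 12.1 CPM and 22.6, 22.6 and 22.8 CPM (log2 0.63, SE 0.17, adjusted p = 0.650). Kcna5, the ultrarapid channel, overlapped, at 3.75, 5.69 and 4.53 CPM in MI and 4.90, 5.60 and 9.43 CPM in MI_ART (log2 0.51, SE 0.28, and 0.17 without MI_ART 3).

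For conduction, Gja1, the main connexin of working muscle, was at 487, 417 and 168 CPM in MI and 483, 523 and 470 CPM in MI_ART, so that MI 4 alone was low (log2 0.46, SE 0.34, and 0.12 without MI 4). Gja5, the atrial connexin, was at 34.3, 32.1 and 36.4 CPM in MI and 17.2, 36.4 and 6.47 CPM in MI_ART, following the light chain ratio within MI_ART (log2 -0.78, SE 0.52, adjusted p = 0.764, and -0.35 without MI_ART 3). The 18 tested genes of gap junctions and intercalated discs (of 20) had a median of 0.31, and of 0.05 without MI 4. Dsp, a desmosomal plaque protein, was at 325, 225 and 117 CPM in MI and 371, 405 and 386 CPM in MI_ART (log2 0.80, SE 0.31, adjusted p = 0.709), and at 0.49 without MI 4. Dsg2, a desmosomal cadherin, fitted the same order, at 49.6, 41.5 and 17.1 CPM and at 52.8, 62.8 and 54.0 CPM (log2 0.65, and 0.31 without MI 4).

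Calcium handling genes had a median of 0.07 over 28 genes, with 4 higher and 0 lower at an unadjusted p under 0.05. Hrc, a calcium-binding protein of the sarcoplasmic reticulum, was at 183, 126 and 81.8 CPM in MI and 229, 260 and 269 CPM in MI_ART, with Sham at 779 to 827 CPM (log2 0.96, SE 0.26, adjusted p = 0.650). Atp2a2, the calcium pump of that store, was at 4731, 3207 and 1354 CPM and at 5624, 6846 and 5402 CPM (log2 0.94, SE 0.36, adjusted p = 0.709), and its inhibitor Pln at 577, 379 and 192 CPM and 658, 596 and 763 CPM (log2 0.81, SE 0.35, adjusted p = 0.709). All 3 were separate between the groups and lowest in MI 4, and their differences without it were 0.71, 0.59 and 0.49. Ryr2, the release channel, overlapped (log2 0.62, SE 0.40, and 0.23 without MI 4). The median of the calcium list was -0.02 without MI 4. The 25 sarcomere genes had a median of 0.22, with 5 higher and 2 lower, and of 0.07, with 2 higher and 0 lower, without MI 4. Myh7b, a myosin heavy chain that hosts a microRNA, was at 14.6, 8.09 and 5.81 CPM and at 19.2, 23.7 and 26.1 CPM (log2 1.28, SE 0.34, adjusted p = 0.650).

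The share of counts on mitochondrial genes was 17.3% ± 4.21 in MI and 24.0% ± 1.33 in MI_ART (SD, n = 3 each; two-sided exact permutation p = 0.1, the smallest possible), against 40.1% ± 2.80 in Sham. All 13 mRNAs of the mitochondrial genome lay without overlap above MI in MI_ART, as did 7.38% of all tested genes. Their median log2 difference was 0.54, and 8 were higher at an unadjusted p under 0.05, against 3.76% of all tested genes. These mRNAs are cut from shared precursors, so they are not 13 independent measurements. The complex I subunit mt-Nd2 was at 9788, 8457 and 5393 CPM in MI and 15428, 12048 and 11576 CPM in MI_ART (log2 0.72, SE 0.25, adjusted p = 0.687). The complex IV subunit mt-Co2 was at 6769, 6757 and 5682 CPM and at 9472, 9354 and 9033 CPM (log2 0.54, SE 0.18, adjusted p = 0.685). MI 4 was lowest for both. Without MI 4 the median of the 13 was 0.36 and 6 were at an unadjusted p under 0.05.

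Nuclear genes of energy metabolism lay on the same side by group, though MI 2 exceeded MI_ART 1 in the list medians. Against the mean of MI, these were 0.44 in MI 2 and 0.31 in MI_ART 1 for fatty acid oxidation. They were 0.42 and 0.22 for the tricarboxylic acid cycle, and 0.14 and -0.06 for nuclear oxidative phosphorylation. Of 33 genes of fatty acid oxidation, the main fuel pathway of adult heart, 32 had a log2 difference above 0, with a median of 0.48, and 7 were higher and 0 lower at an unadjusted p under 0.05 (median 0.28 and 6 higher without MI 4, and 0.16 and 5 higher without both MI 4 and MI_ART 3). The ventricular markers given above lay on the same side, with all 12 above 0 and a median of 0.58, and the part of the chamber makeup in the metabolic differences was not tested. Mlycd, which removes the malonyl-CoA that blocks fatty acid entry into mitochondria, was at 45.5, 30.9 and 40.0 CPM in MI and 56.2, 63.0 and 62.5 CPM in MI_ART (log2 0.64, SE 0.19, adjusted p = 0.656). Ucp3, a mitochondrial carrier induced by fatty acids, was at 39.3, 28.2 and 7.51 CPM and at 59.0, 61.3 and 74.5 CPM (log2 1.38, SE 0.49, adjusted p = 0.709), and Acot2, a mitochondrial thioesterase, at 24.1, 16.6 and 10.1 CPM and 27.9, 27.9 and 33.1 CPM (log2 0.81, SE 0.27, adjusted p = 0.685). In all 3 each MI_ART library exceeded each MI library and stayed below each Sham library.

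The 24 genes of the tricarboxylic acid cycle had a median of 0.34, with 2 higher at an unadjusted p under 0.05, and of 0.14 with 0 higher without MI 4. Suclg2, a subunit of succinyl-CoA ligase, was at 57.2, 45.3 and 50.5 CPM in MI and 113, 60.8 and 144 CPM in MI_ART (log2 1.05, SE 0.42, adjusted p = 0.709), and Mdh1, the cytosolic malate dehydrogenase, at 871, 688 and 451 CPM and 929, 1144 and 920 CPM (log2 0.58, SE 0.24, adjusted p = 0.709, and 0.36 without MI 4). Of 46 nuclear genes of oxidative phosphorylation, 41 had a difference above 0, but the median was 0.19 (0.10 without MI_ART 3) and 3 were higher at that level. Cox7a1, the heart and muscle form of a complex IV subunit, was at 44.4, 41.7 and 40.1 CPM in MI and 56.0, 82.7 and 93.5 CPM in MI_ART (log2 0.88, SE 0.21, adjusted p = 0.631), whereas Cox8b, another such form, overlapped through MI_ART 1, at 36.7 CPM (log2 0.67, SE 0.25). The 24 genes of glycolysis and glucose uptake had a median of 0.03 and were split, with 4 higher and 2 lower. The muscle forms Pfkm, a phosphofructokinase (log2 0.56, SE 0.19), and Slc2a4, the insulin-responsive glucose transporter (log2 0.56, SE 0.21), were on the higher side. Eno1, the widely expressed enolase, was on the lower side, at 408, 377 and 760 CPM in MI and 360, 259 and 274 CPM in MI_ART (log2 -0.79, SE 0.27, adjusted p = 0.687, and -0.40 without MI 4).

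**Figure D5:**
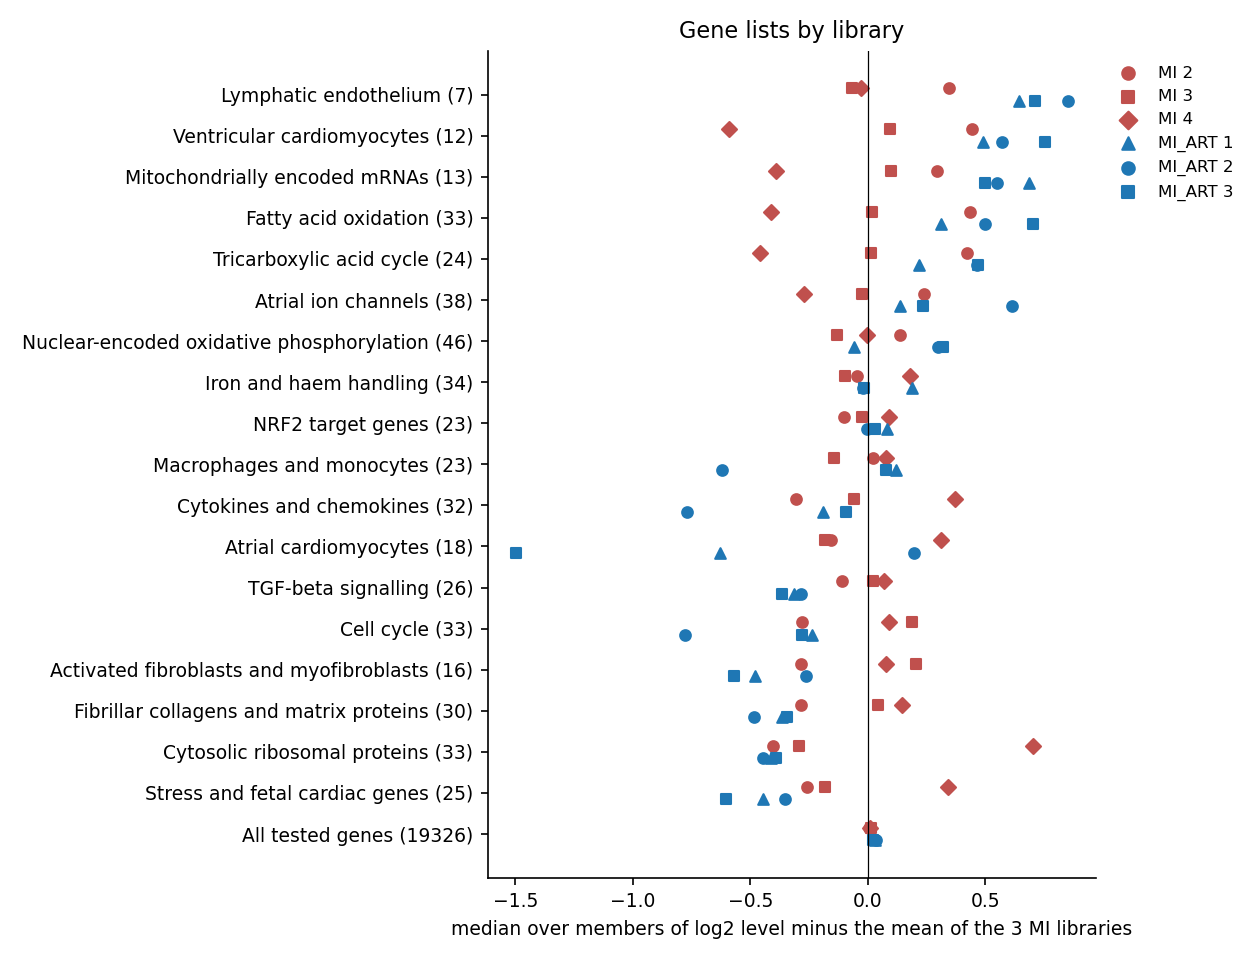
Median over the tested members (number in brackets) of the log2 level in each infarcted library minus the mean of the 3 MI libraries, for 18 gene lists and for all tested genes. Red symbols are MI and blue symbols are MI_ART, with 1 shape per replicate number. MI 4 (red diamonds) is the MI library farthest from MI_ART for stress, matrix, ribosomal, mitochondrial and fatty acid oxidation genes, and the medians of all tested genes stay near 0.

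No immune marker or cytokine passed the test. Macrophage and monocyte markers had a median log2 difference of -0.06 over 23 genes (0.01 without MI 4 and -0.26 without MI_ART 3), with 0 higher and 0 lower at an unadjusted p under 0.05, and MI_ART 2 was the lowest library, with a median of -0.62 against the mean of MI. Ccr2, the receptor that recruits monocytes, was at 71.0, 69.2 and 69.8 CPM in MI and 51.9, 54.8 and 57.6 CPM in MI_ART, separate but not past the test (log2 -0.35, SE 0.18, adjusted p = 0.732). Gpnmb, a marker of lipid-laden macrophages, overlapped in the other direction, at 43.3, 78.7 and 63.2 CPM and at 102, 46.3 and 116 CPM (log2 0.52, SE 0.32, and 0.27 without MI_ART 3). Cd14, the co-receptor for bacterial lipopolysaccharide, overlapped at log2 -0.50 (SE 0.25). Spp1, or osteopontin, ranged from 427 to 755 CPM in MI and from 308 to 922 CPM in MI_ART (log2 0.07, SE 0.49).

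Of 32 tested cytokines and chemokines (of 33), 1 was higher and 1 lower at an unadjusted p under 0.05, with a median of -0.35 (1 higher, 0 lower and -0.19 without MI 4). The lower one was Lif, a ligand of the gp130 receptor family, at 2.69, 3.41 and 4.60 CPM in MI and 2.17, 2.03 and 2.08 CPM in MI_ART (log2 -0.77, SE 0.33, adjusted p = 0.709). Tnf was at 2.28, 3.03 and 3.94 CPM and at 1.52, 1.49 and 1.79 CPM (log2 -0.95, SE 0.44, adjusted p = 0.718), and Il6 at 2.24, 3.399 and 4.73 CPM and 1.89, 1.53 and 2.02 CPM (log2 -0.93, SE 0.57, adjusted p = 0.752). For these 3 inflammatory cytokines the groups were separate at low levels, with MI 4 highest. Il1b overlapped, at 8.88, 8.89 and 17.0 CPM and at 9.85, 4.70 and 10.8 CPM (log2 -0.46, SE 0.45, and -0.08 without MI 4). The higher one was Ccl21a, a chemokine of lymphatic vessels, at 15.8, 9.26 and 25.4 CPM and at 24.2, 28.0 and 36.8 CPM (log2 0.82, SE 0.32, adjusted p = 0.709, and 1.24 without MI 4). Cxcl9, which interferon-gamma induces, was separate with MI_ART above MI (log2 0.60, SE 0.28, adjusted p = 0.721).

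None of 20 inflammasome and pyroptosis genes reached an unadjusted p of 0.05 (median -0.13, and -0.07 without MI 4). Nlrp3, the sensor of the main cardiac inflammasome, was nearest, at 4.75, 4.35 and 3.57 CPM in MI and 2.84, 1.69 and 3.27 CPM in MI_ART (log2 -0.70, SE 0.33, adjusted p = 0.724). None of 24 interferon-induced genes did so either (median 0.17, and -0.04 without MI_ART 3), nor any of the 9 tested neutrophil markers (median -0.36 and 0.03 without MI 4). In T and NK cell markers (16 tested, median 0.14, but 0.34 without MI 4 and -0.06 without MI_ART 3) 1 gene was higher: Cd8a, the cytotoxic T cell co-receptor, at 0.0911, 0.182 and 0.226 CPM in MI and 0.777, 0.363 and 0.777 CPM in MI_ART (log2 1.93, SE 0.64, adjusted p = 0.685).

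Cell cycle genes had a median log2 difference of -0.44 over 33 genes, and 31 lay below 0. Of them, 6 were lower and 0 higher at an unadjusted p under 0.05, and 2 without MI 4, where the median was -0.39. The cyclin gene Ccnd3, given above among the leading higher genes (log2 1.05), is not in this list. Against the mean of MI, the list median was -0.28, 0.19 and 0.09 in MI. In MI_ART it was -0.24, -0.78 and -0.28, so that MI 2 lay with MI_ART 1 and 3, and MI_ART 2 was lowest. Mcm3, a subunit of the replication helicase, was at 39.03, 41.5 and 41.0 CPM in MI and 34.6, 18.8 and 26.9 CPM in MI_ART (log2 -0.60, SE 0.21, adjusted p = 0.709). Mcm5 of the same helicase overlapped through MI_ART 1, and was at log2 -0.69 (SE 0.27, and -0.37 without MI 4). Ccne1, the cyclin of S phase entry, was at 5.18, 6.70 and 9.25 CPM and at 4.43, 4.48 and 4.27 CPM (log2 -0.68, SE 0.26, adjusted p = 0.709, and -0.44 without MI 4). Cdkn1a, the inhibitor p21, was at 38.3, 37.2 and 69.2 CPM in MI and 37.4, 32.5 and 32.9 CPM in MI_ART, apart from MI 4 close together (log2 -0.49, SE 0.25, and -0.14 without MI 4).

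Cytosolic ribosomal protein genes took 1.70% ± 0.764 of counts in MI and 1.11% ± 0.0321 in MI_ART (SD, n = 3 each; two-sided exact permutation p = 0.1, the smallest possible). All 33 had a log2 difference below 0, with a median of -0.50, but the summed level was 9882 and 10569 CPM in MI 2 and MI 3, 20081 CPM in MI 4, and 9418 to 9730 CPM in MI_ART. Rplp1 was at 367, 405 and 935 CPM in MI and 319, 342 and 341 CPM in MI_ART (log2 -0.77, and -0.21 without MI 4), and Rpl3 stood at -0.63 and -0.27. Without MI 4 the median of the list was -0.09 and 0 members reached an unadjusted p of 0.05. White and brown adipocyte markers depended on the same library: their median was -0.74 over 14 tested genes with MI 4 and 0.55 without it, and their summed level was 536, 579 and 1124 CPM in MI and 598, 936 and 682 CPM in MI_ART.

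Among genes that handle iron and haem, with which artesunate reacts, none passed the test. Of 34, all tested, 17 lay above 0, the median was 0.01, and 2 were higher and 0 lower at an unadjusted p under 0.05. Slc40a1, or ferroportin, the exporter of iron, was at 23.1, 20.1 and 13.2 CPM in MI and 35.7, 31.9 and 37.6 CPM in MI_ART, beside Sham at 33.6 to 49.5 CPM (log2 0.90, SE 0.24, adjusted p = 0.650). Uros, an enzyme of haem synthesis, was at 10.8, 10.2 and 7.84 CPM and at 12.5, 13.9 and 16.4 CPM (log2 0.57, SE 0.19, adjusted p = 0.685). In both the groups were separate. Hmox1, the haem oxygenase, was at 232, 288 and 376 CPM in MI and 441, 241 and 317 CPM in MI_ART, against 10.4 to 11.5 CPM in Sham (log2 of MI_ART against MI 0.16, SE 0.24, adjusted p = 0.891).

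Of 25 genes of lipid peroxidation and of the defence against ferroptosis, an iron-dependent cell death, 0 were higher and 1 lower at an unadjusted p under 0.05, with a median of -0.05. The lower one was Alox15, a lipoxygenase that makes lipid peroxides, at 5.63, 5.99 and 5.43 CPM in MI and 1.79, 1.08 and 3.69 CPM in MI_ART, against 0.0766 to 0.553 CPM in Sham (log2 -1.38, SE 0.57, adjusted p = 0.709). Gpx4, the enzyme that reduces lipid peroxides, overlapped, at 286, 244 and 430 CPM and at 271, 304 and 321 CPM (log2 -0.10, SE 0.21, adjusted p = 0.926). Slc7a11, the cystine importer, was at 1.66, 2.44 and 1.97 CPM and at 1.12, 0.875 and 1.44 CPM (log2 -0.82, SE 0.37, adjusted p = 0.716), and Ptgs2, a cyclooxygenase, overlapped (log2 -0.66, SE 0.35, and -0.43 without MI_ART 3). Targets of the oxidant sensor NRF2 had a median of 0.02 over 23 tested genes (of 24), with 0 at an unadjusted p under 0.05 in either direction. Nqo1, a quinone reductase and NRF2 target, was at 39.9, 26.4 and 15.0 CPM and at 43.5, 41.7 and 42.6 CPM (log2 0.65, SE 0.30, and 0.36 without MI 4).

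Of 27 tested genes of the integrated stress and unfolded protein responses (of 28), 0 were higher and 3 lower at an unadjusted p under 0.05, with a median of -0.15 (-0.09 without MI 4). These were Atf4, the transcription factor of the response, and its targets Mthfd2, a mitochondrial folate enzyme, and Phgdh, the first enzyme of serine synthesis. Atf4 was at 145, 146 and 164 CPM in MI and 122, 109 and 110 CPM in MI_ART, with Sham at 73.8 to 91.1 CPM (log2 -0.41, SE 0.15, adjusted p = 0.709). Mthfd2 was at 15.2, 21.3 and 21.8 CPM and at 12.7, 10.6 and 11.5 CPM, with Sham at 2.33 to 3.28 CPM (log2 -0.75, SE 0.21, adjusted p = 0.656). Both lay between MI and Sham in every MI_ART library. Phgdh overlapped through MI_ART 1 (log2 -1.05, SE 0.39, and -0.53 without MI 4). Pink1, the kinase that marks damaged mitochondria, is not in this list and was on the higher side, at 182, 129 and 128 CPM and at 236, 244 and 241 CPM (log2 0.71, SE 0.19, adjusted p = 0.650). Of 25 genes of autophagy and lysosome, 2 were higher and 0 lower at an unadjusted p under 0.05, with a median of 0.04.

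Among 23 tested genes of xenobiotic metabolism (of 28), 6 were higher and 1 lower at an unadjusted p under 0.05, with a median of 0.23, and 7 and 1 without MI 4. The median was 0.39 without MI_ART 3. Cyp4b1 was one of the 6. Cyp3a13, a cytochrome P450 of drug oxidation, was at 0.0569, 0.204 and 0.140 CPM in MI and 0.321, 0.688 and 0.493 CPM in MI_ART, with Sham at 0.848 to 1.78 CPM (log2 1.89, SE 0.59, adjusted p = 0.683). The lower one was Nr1i3, the nuclear receptor CAR, which senses drugs in the liver, at 1.97, 4.57 and 1.15 CPM and at 0.531, 0.963 and 0.555 CPM (log2 -1.91, SE 0.55, adjusted p = 0.656). The 19 clock genes had a median of 0.37, with 2 higher and 1 lower, and of 0.18 without MI 4, 0.23 without MI_ART 3 and 0.16 without both. The higher were Tef and Hlf, clock output factors, with Tef at 45.4, 50.7 and 49.0 CPM and at 71.9, 56.8 and 70.0 CPM (log2 0.45, SE 0.15, adjusted p = 0.685) and Hlf overlapping (log2 0.54, SE 0.22). The lower one was Rora. The hour of harvest is not given.

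Of 25 immediate early genes, 2 were higher and 4 lower at an unadjusted p under 0.05, with a median of -0.17. Ier3 was at 70.1, 65.5 and 98.1 CPM in MI and 49.5, 46.2 and 38.5 CPM in MI_ART (log2 -0.80, SE 0.19, adjusted p = 0.631), and Ier5 at 41.0, 42.0 and 49.7 CPM and 33.02, 27.5 and 29.9 CPM (log2 -0.55, SE 0.16, adjusted p = 0.656). Dusp1, a phosphatase that ends MAP kinase signals, was on the higher side with overlap (log2 0.80, SE 0.29).

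Markers of lymphatic and of blood vessels lay on opposite sides of 0. Of 7 lymphatic markers, 6 lay above 0, and the median was 0.69 with MI 4 and 0.28 without it, with 3 higher at an unadjusted p under 0.05 in both cases. Mmrn1, a multimerin of lymphatic endothelium, was at 5.71, 3.61 and 2.84 CPM in MI and 6.88, 7.79 and 11.8 CPM in MI_ART, with Sham at 13.7 to 15.6 CPM (log2 1.12, SE 0.29, adjusted p = 0.650). Reln, or reelin, which lymphatic endothelium secretes, was at 3.38, 2.11 and 2.62 CPM and at 4.24, 5.29 and 5.23 CPM (log2 0.86, SE 0.24, adjusted p = 0.656). The third was Ccl21a. Of 18 markers of blood endothelium, 0 were higher and 4 lower, with a median of -0.26 that was -0.00 without MI 4. Plvap, which spans the pores of fenestrated vessels, was at 61.9, 62.4 and 200.2 CPM in MI and 33.4, 44.1 and 29.6 CPM in MI_ART (log2 -1.60, SE 0.48, adjusted p = 0.672, and -0.80 without MI 4). Emcn, a sialomucin of veins and capillaries, was at 67.3, 79.2 and 91.0 CPM and at 49.8, 58.5 and 44.3 CPM (log2 -0.64, SE 0.21, adjusted p = 0.685).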

How the data were processed

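RNA was counted per gene in 9 libraries, 3 per group by their labels. The deposited values are raw read counts per Ensembl gene, made by the authors with HISAT (version not given) and featureCounts 1.5.0-p3 on GRCm38, per the submitters' processing notes, which also name DESeq 1.8.3. No source used here gives the strand setting or the multi-mapping rule. Total counts were 68046341 to 83685313, and 3 counts in a library corresponded to at most 0.0592 CPM. Floors cover counting error only.

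The 9 libraries were fitted together in R 4.3.3 with edgeR 4.0.16 (TMM factors, filterByExpr on the 3 groups, 1 mean per group, quasi-likelihood F test of MI_ART against MI, Benjamini-Hochberg adjustment over all tested genes, called under 0.05). This kept 19326 of 55421 genes, and the script was tested on simulated data. Adjusted p-values without another tool's name come from this fit. DESeq2 1.42.0, limma 3.58.1, other scalings and filters, a replicate block, a light chain covariate and leaving out libraries served as alternatives. Shares of counts were compared by exact permutation tests. Gene lists (50 with 1009 distinct genes, of which 53 were not tested) were described by counts and medians, with no set test.

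Named genes were every called gene, the 10 of smallest p in each direction with a mean of at least 1 CPM and no overlap between MI and MI_ART, a panel, leading and most abundant members of lists, all zinc and fast muscle genes, the 3 nearest genes on each side of a called gene, and genes called without MI 4, MI_ART 3 or both. Predicted genes, pseudogenes, antigen receptor segments and genes with no symbol were left out of the leading genes. Not every list member that the rule names is printed. Members and lists were chosen with earlier results of these data known. Results for a few genes are not reported here. No sequence is printed.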

Additional observations from a re-analysis of the deposited data

How the results depend on the processing

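The count of genes called lower, 2 in the edgeR fit, was 1 with upper-quartile factors, with total counts, with no low-count filter, with limma-voom, without MI 4 and MI_ART 3 together, with the replicate block and with the light chain covariate, 6 with limma-voom quality weights, 40 with DESeq2 and 0 with the 6 infarcted libraries alone. It was 0 to 3 when 1 of the 9 libraries was left out. The count of genes called higher, 0 in that fit, was 45 with DESeq2, 1 with quality weights, and 0 or 1 when 1 library was left out (Kcnv2, without MI 2). Without MI_ART 2 no gene was called. MI and MI_ART share 2 replicate numbers, and the correlations of same-numbered deviations were -0.0354 and 0.0754. Pairs of MI and MI_ART with different numbers ran from -0.121 to 0.0990. With 2 same-numbered pairs, these values cannot show whether the numbers pair the samples. With the replicate block 0 genes were called higher and 1 lower.

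Some genes that did not pass the test changed sign. Gpx4 was at log2 -0.256 to 0.17 when 1 library was left out, and at 0.16 with quality weights, 0.17 without MI 4, 0.12 without MI 4 and MI_ART 3, and 0.22 with the block. Spp1 was at -0.044 with total counts, -0.031 with limma-voom, -0.32 (without MI_ART 1) to 0.396 when 1 library was left out, -0.12 without MI 2 and -0.36 with the block. Myl7 was at 0.29 without MI 4 and MI_ART 3 and 1.03 with the light chain covariate, Gja5 at 0.062 with that covariate, and Hmox1 at -0.093 (without MI_ART 1) to 0.358 (without MI 4) when 1 library was left out. The covariate is built in part from Myl7 itself, so the value of Myl7 with it cannot show how stable its difference is. Of the 24 lists with a median of at least 0.3 in size, 0 changed sign under the other scalings, 5 without MI 4, 6 without MI 4 and MI_ART 3, 3 with quality weights, 3 with the block, 2 with the covariate and 1 without MI_ART 2. The cause was not tested. Total counts moved the median of all genes from -0.0030 to -0.109. With 3 libraries per group, the median SE over tested genes was 0.306 on the log2 scale.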

Other observations

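Of the genes that DESeq2 called and edgeR did not, 10 outside the naming rule were singled out after their values had been seen, 4 lower and 6 higher in MI_ART. Ccn5, a relative of Ccn2, was at 60.9, 69.4 and 186 CPM in MI and at 34.8, 36.1 and 36.1 CPM in MI_ART (log2 -1.56, SE 0.37, DESeq2 adjusted p = 0.0134). Fstl3, which binds activin, was at 22.3, 24.1 and 42.8 CPM and at 13.1, 15.0 and 9.92 CPM (log2 -1.23, SE 0.29, DESeq2 adjusted p = 0.0268). In both the groups were separate, with MI 4 far above MI 2 and MI 3, and the difference without MI 4 was -0.87 for each. Wnt11, a ligand of noncanonical Wnt signalling, was at 5.90, 6.36 and 10.2 CPM and at 3.20, 2.96 and 3.403 CPM (log2 -1.23, SE 0.28, DESeq2 adjusted p = 0.0228), and its MI_ART libraries lay below every Sham library, at 3.54 to 5.94 CPM. Col8a2, a short-chain collagen, was at 5.99, 10.6 and 12.6 CPM and at 2.34, 2.80 and 4.22 CPM (log2 -1.64, SE 0.37, DESeq2 adjusted p = 0.0103, and -1.41 without MI 4).

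Scara5, a ferritin receptor of fibroblasts, was at 10.9, 4.88 and 4.13 CPM in MI and 20.0, 23.6 and 14.1 CPM in MI_ART, with Sham at 32.5 to 34.3 CPM (log2 1.53, SE 0.35, DESeq2 adjusted p = 0.0102). Aqp4, a water channel, was at 2.52, 1.42 and 1.03 CPM and at 4.34, 3.65 and 7.48 CPM (log2 1.64, SE 0.37, DESeq2 adjusted p = 0.00942). Clcn1, a muscle chloride channel, was at 1.59, 1.19 and 0.571 CPM and at 2.05, 4.99 and 3.44 CPM (log2 1.64, SE 0.43, DESeq2 adjusted p = 0.0364), and Kcnv2, a modifier of potassium channels, at 1.64, 0.429 and 0.399 CPM and 2.97, 2.80 and 3.59 CPM (log2 1.92, SE 0.50, DESeq2 adjusted p = 0.0184). In all 4 every MI_ART library lay between the MI and the Sham libraries. Slc25a42, a mitochondrial carrier of coenzyme A, and Acsl6, which activates fatty acids, had the same order, with log2 differences of 1.05 and 1.08 (DESeq2 adjusted p = 0.0481 and 0.0325). The edgeR adjusted p of these 10 genes was 0.570 to 0.650. How often this order of MI, MI_ART and Sham held among the 45 genes that DESeq2 called higher was not counted. It did not hold for Adam1a, Uvrag and Kidins220, for example, whose MI_ART libraries were not all below the Sham libraries.

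Some levels were high in 1 library alone. The genes at 1 CPM or more in 1 infarcted library and over 10 times the highest of the other 5 numbered 1 in MI 2, 3 in MI 3, 5 in MI 4, 25 in MI_ART 1 and 0 in MI_ART 2 and MI_ART 3. Many of the 25 in MI_ART 1 are known from brain, among them Ttr at 25.8 CPM, Ddn at 15.1 CPM, Hpca at 14.6 CPM, Mobp at 11.9 CPM, Sst at 3.22 CPM and Gad1 at 2.76 CPM, and Slc30a3 of the zinc list is one of them. The source of these transcripts was not tested. Kctd12 was at 0 in every infarcted library but MI 4, at 34.3 CPM, and in Sham was at 28.6, 0 and 29.6 CPM. Fam177a was at 9.29, 0 and 11.2 CPM in Sham, at 0 in MI, and at 1.67, 0 and 8.79 CPM in MI_ART.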
